A study of Homo sapiens with 24 samples.

Results

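The subject is the 24 h response of 769-P cells to dasatinib. It was read from 6 of the 24 arrays of the series, 3 labelled as 769-P with dasatinib for 24 h and 3 labelled as 769-P control, and chosen by these labels alone. 769-P is a human line grown from a primary clear cell renal cell carcinoma, and dasatinib is a kinase inhibitor taken by patients with leukaemia that binds ABL, the SRC family and several receptor kinases. The 24 h cells received 1 µM dasatinib and the control cells DMSO, the solvent, and both were kept under the same culture conditions. The series also holds 769-P at 6 h and 12 h of the drug and the same 4 treatments in Caki-1, a line from a metastasis of a clear cell renal carcinoma; of these, the 769-P 12 h arrays and the Caki-1 24 h and DMSO arrays serve as comparisons. The labels give no time for the DMSO cells, so the same 3 DMSO arrays are the control at every time, and hours of drug cannot be told apart from hours in culture. They name 3 biological replicates per group without saying whether the cultures were grown or treated on separate days, and each line is a single line, so p-values speak only of the spread between these arrays.

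SRC family kinases sit beneath the cell membrane and pass signals from integrins and growth factor receptors to the ERK and AKT pathways and to YAP, a coactivator that answers to cell attachment. When those signals fall, cells stop making cyclin D, the retinoblastoma family holds the E2F factors in check, and the genes for DNA replication are shut down; the genes for mitosis are shut down through a related repressor complex, DREAM, which sits on a promoter element called the cell cycle homology region (CHR), usually with a CCAAT box nearby. AKT also keeps FOXO factors out of the nucleus, and growth signals acting through mTOR do the same for TFEB, a factor that drives lysosomal genes through the CLEAR element, which is built around an E-box.

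Genes of mitosis and DNA replication fell at 24 h, and most lysosomal genes rose. The promoters of 7 genes of these groups are shown for that reason, each as the 150 bases before the start of the gene, 5′ to 3′, from the RefSeq table for GRCh38.p14. They are the members with the deepest falls (or, for the lysosome, the largest rises) among those whose 150 bases hold the motif, which is in capitals: TTTGAA (CHR) and CCAAT on either strand in the mitotic genes MKI67, KIF23 and CENPA, the E2F letters TTTCGCGC or TTTGGCGC in the helicase genes MCM6 and MCM7, and the E-box CACGTG in the lysosomal genes NEU1 and GAA.
MKI67, chr10:128126424-128126573, minus strand: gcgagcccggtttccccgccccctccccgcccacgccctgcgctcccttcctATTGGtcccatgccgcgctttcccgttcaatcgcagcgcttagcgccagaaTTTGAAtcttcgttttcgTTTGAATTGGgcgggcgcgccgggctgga
KIF23, chr15:69414199-69414348, plus strand: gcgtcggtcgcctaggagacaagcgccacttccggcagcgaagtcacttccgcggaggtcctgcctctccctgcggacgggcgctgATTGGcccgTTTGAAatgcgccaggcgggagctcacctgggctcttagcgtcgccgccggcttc
CENPA, chr2:26785906-26786055, plus strand: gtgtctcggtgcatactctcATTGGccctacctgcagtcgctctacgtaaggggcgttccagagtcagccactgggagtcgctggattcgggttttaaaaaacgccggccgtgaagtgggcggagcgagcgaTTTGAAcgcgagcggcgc
MCM6, chr2:135876444-135876593, minus strand: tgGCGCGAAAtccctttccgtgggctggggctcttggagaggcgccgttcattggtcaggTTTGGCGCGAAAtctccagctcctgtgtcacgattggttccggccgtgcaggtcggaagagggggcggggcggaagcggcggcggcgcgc
MCM7, chr7:100101398-100101547, minus strand: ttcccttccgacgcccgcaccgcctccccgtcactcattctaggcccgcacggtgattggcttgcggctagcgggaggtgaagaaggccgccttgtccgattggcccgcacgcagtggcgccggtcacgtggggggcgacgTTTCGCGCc
NEU1, chr6:31862822-31862971, minus strand: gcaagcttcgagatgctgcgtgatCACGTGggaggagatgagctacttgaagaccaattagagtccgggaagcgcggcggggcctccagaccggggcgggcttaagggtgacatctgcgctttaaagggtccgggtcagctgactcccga
GAA, chr17:80101431-80101580, plus strand: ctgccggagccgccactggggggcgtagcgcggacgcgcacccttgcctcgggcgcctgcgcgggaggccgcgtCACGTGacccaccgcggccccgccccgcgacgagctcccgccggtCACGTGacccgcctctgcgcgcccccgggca
The MKI67 promoter holds TTTGAA 47 and 29 bases before the start and CCAAT, on either strand, 98 and 24 bases before it, and the nearest CHR and CCAAT share 1 base. In KIF23 the CHR begins 55 bases before the start and the CCAAT box 64, and in CENPA 18 and 130. MCM6 has E2F letters at 148, 90 and 86 bases, the last 2 overlapping, and MCM7 at 9. NEU1 has an E-box at 126 bases and GAA has E-boxes at 76 and 31.

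Promoters of 250 bases were searched for the same letters in every gene with an entry, taking the outermost start where a gene has several. A CHR (TTTGAA or TTCGAA, either strand) was found in 15 of 28 promoters of the mitosis list (53.6%), against 9.85% of the 10087 promoters of genes tested and 14.7% of all 27305 promoters. CCAAT stood in 21 of these 28 (75%), against 34.9% of tested genes, and in shares as high in lists that did not fall together, sterol synthesis (76.2%) and the ATF4 response (71.4%). The E2F letters stood in 5 of 27 promoters of the replication list (18.5%), against 1.66% of tested genes. CACGTG stood in 7 of 24 promoters of the lysosome list (29.2%), against 8.65% of tested genes and 4.17% of the ribosome assembly and MYC list. High shares were also found in lists that did not rise together, the Kruppel-like factors (3 of 10, 30%) and deoxynucleotide synthesis (4 of 17, 23.5%). The TEAD letters GGAATG stood in 8.33% of promoters of the YAP list, against 9.35% of tested genes. These are matches of letters and not measured binding.

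The labelled cell type was checked first. All 10 renal epithelial markers were above the level filter described next; PAX8, the renal lineage factor, read 10.30, 10.24 and 10.33 at 24 h, against 9.90, 9.74 and 9.73 under DMSO (0.50; 0.33 as the mean of its probe sets). Of the 10 renal markers 5 were called higher and 3 lower, the falls including LHX1 (-2.01) and KRT18 (-0.46). As log2, the summed level of the 10 was 15.39 to 15.43 with dasatinib, against 15.54 to 15.56 with DMSO. This sum mostly reads VIM, the brightest of the 10 (14.87 under DMSO, with CDH2 next at 12.58). Both are also counted below among the mesenchymal factors, so the sum says little about the epithelial type. The defining markers of blood (PTPRC), endothelium (CDH5) and fibroblasts (COL1A1) lay under the filter. Above it were 4 of 11 markers of blood, 5 of 11 of endothelium and 1 of 10 of fibroblasts. CD68 of blood was called higher without DMSO replicate 1, with quantile normalization and with array weights. In the reported fit none of these markers was called. Their summed levels, as log2, were 9.56 to 9.59 with dasatinib, against 9.39 to 9.61 with DMSO, for blood, 8.76 to 8.96, against 8.70 to 8.87, for endothelium, and 8.03 to 8.15, against 8.04 to 8.21, for fibroblasts. All values are log2 signals, on which 1 unit is 2-fold. Each gene was read from 1 probe set, the brightest that names it alone, and 12354 of 18132 genes had a mean above 5.361, the 40th percentile of all probe sets in 769-P. The arrays correlated at 0.9928 to 0.9967 within a group, and the first principal component, 90.1% of the variance, separated the groups. Dasatinib replicate 1 at 24 h stood apart from the other dasatinib arrays on the second component (4.1%). Its gap between the 3′ and 5′ probe sets of ACTB, a sign of RNA degradation or of short labelled cRNA, was 4.07, against 3.10 and 3.22 on the other dasatinib arrays and 2.78 to 3.21 on the DMSO arrays.

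Most of the genes above the level filter differed between 24 h of dasatinib and DMSO. 3841 genes rose, 31.1% of those tested, and 3044 fell, 24.6% (limma, adjusted p under 0.05). These shares are the measure for the counts of list members below. At least 2-fold changes were 798 rises (6.46%) and 751 falls (6.08%), and the median over all genes was 0.04. The 3 dasatinib arrays did not overlap the 3 DMSO arrays in 60.6% of tested genes. Without dasatinib replicate 1 the counts were 3611 and 3066. The RNA came from whole cultures, in which fewer cells of a kind and less RNA per cell cannot be told apart.

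The largest rise was in AKR1C1, an aldo-keto reductase that inactivates progesterone and clears reactive carbonyls. Its log2 signal was 12.50, 12.80 and 13.12 on the dasatinib arrays, against 7.65, 8.28 and 8.70 on the DMSO arrays, a rise of 4.60 ± 0.22 (SE) or 24.2-fold (adjusted p = 8.27e-11). MAF, a large basic leucine zipper factor of the kidney and lens, read 11.17, 11.37 and 11.93, against 6.13, 6.99 and 8.45 under DMSO, where its arrays were far apart (change 4.30 ± 0.48). ERBB3, the receptor that binds neuregulin and has little kinase activity of its own, read 9.94, 10.83 and 10.95, against 5.57, 6.58 and 7.14 (4.14 ± 0.35). The groups were clear of each other in all 3 genes, as was required of every gene named among the largest changes. SEMA5A, a guidance ligand, rose by 4.10, the potassium channel gene KCNJ8 by 3.90, the oxysterol receptor GPR183 by 3.89, the adaptor SORBS2 by 3.71, the small heat shock protein CRYAB by 3.68 and AKR1C2, the close relative of AKR1C1, by 3.61. GBP2, ARRDC4, H2BC5, DNER, PLA1A and HSD17B2 complete the 15 largest rises, at 3.44 to 3.59. The AKR1C genes are nearly alike in sequence, so their probe sets may share signal. Read as the mean of all of a gene's probe sets, the rises were smaller for MAF (1.95), AKR1C2 (1.60), CRYAB (1.92) and ERBB3 (2.43).

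The list of falls was headed by MMP1, the interstitial collagenase. Its signal was 5.50, 4.53 and 4.58 on the dasatinib arrays, against 9.65, 9.71 and 9.73 on the DMSO arrays, a fitted change of -4.83 ± 0.20 (adjusted p = 1.38e-11). GABRB1, a GABA receptor subunit, read 3.94, 3.31 and 3.43, against 8.65, 8.18 and 8.05 (-4.73 ± 0.21). MYEOV read 6.17, 6.02 and 6.06, against 10.39, 10.55 and 10.72 (-4.47 ± 0.16). DOCK2, a RAC activator best known from blood cells, read 4.39, 4.25 and 4.49, against 8.48, 8.75 and 9.21 (-4.44 ± 0.24). No dasatinib array reached the lowest DMSO array in any of these 4 genes, which the choice of genes required. Of the 30 largest changes in both directions 12 had a mean under the level filter of 5.361 in 1 group: MMP1, GABRB1, DOCK2, SPC25, CDC45, E2F8 and FAM111B with dasatinib, and DNER, GPR183, HSD17B2, PLA1A and SORBS2 with DMSO. These genes passed the filter through the other group, and since a signal that low may be background, neither the size of their changes nor their place in the order is exact. The other 11 of the 15 largest falls act in cell division or are cell cycle genes in most cells: SPC25, SPC24, ESCO2, UHRF1, E2F8, MKI67, CDC45, GINS2, FAM111B, MCM10 and SHCBP1, at -4.63 to -3.62. With the mean of all probe sets DOCK2 changed by -2.36, ESCO2 by -2.65, UHRF1 by -2.08 and SPC24 by -1.45.

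**Figure D1:**
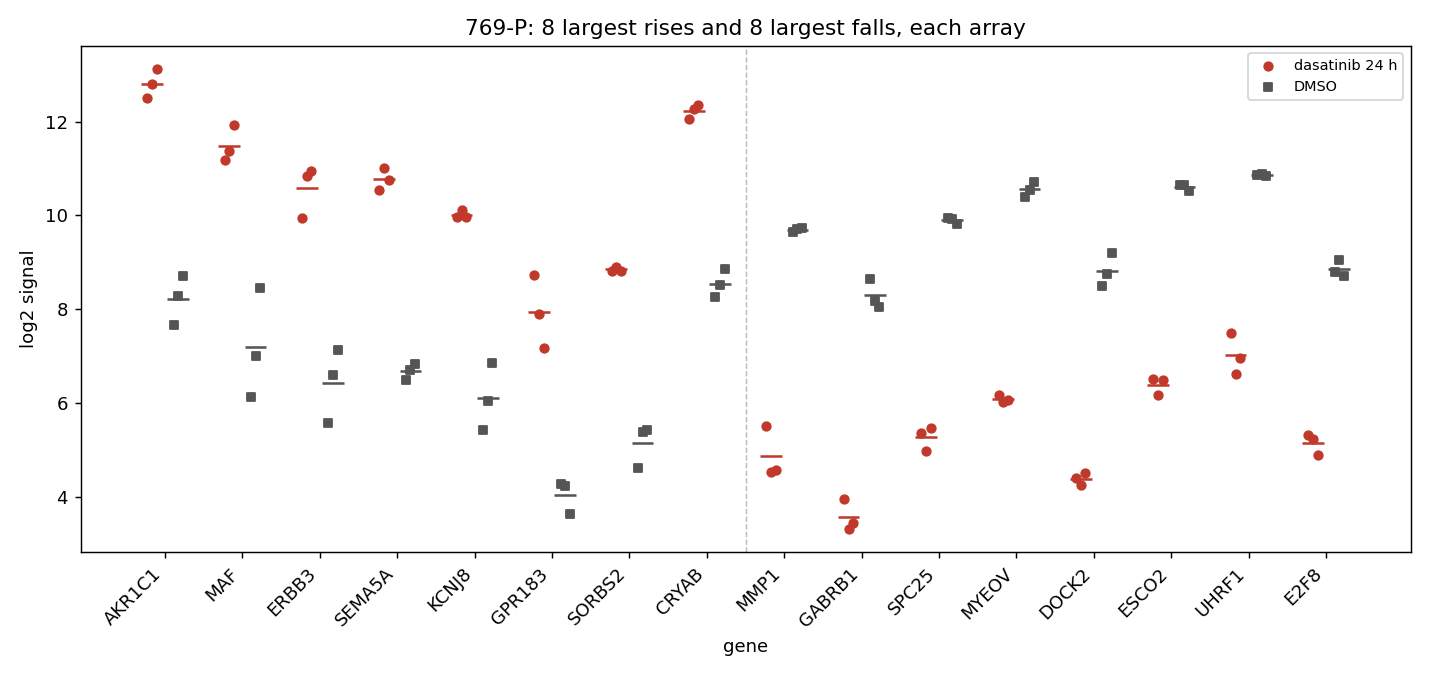
Log2 signal (vertical axis) on each array for the 8 genes with the largest rises and the 8 with the largest falls, dasatinib 24 h as circles left and DMSO as squares right of each gene, with group means as bars (n = 3 each). The 16 genes were chosen among those whose groups do not overlap, and the DMSO arrays of MAF run from 6.13 to 8.45.

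Every tested member of the replication list fell. The list holds the origin licensing factors, the CMG helicase and the fork polymerases, and 30 of 30 fell, 26 of them at least 2-fold, with a median change of -1.99 against 0.04 for all genes (29 fell without dasatinib replicate 1). CDC6, which loads the MCM helicase onto origins, read 8.27, 7.33 and 7.82 on the dasatinib arrays, against 11.30, 11.23 and 11.32 (-3.48 ± 0.16, adjusted p = 5.73e-11). CDC45, which joins the helicase when it fires, read 5.44, 4.82 and 5.32, against 8.95, 8.87 and 8.81 (-3.69 ± 0.13). GINS2, another helicase subunit, changed by -3.68 and MCM10, which helps start unwinding, by -3.64. Dasatinib replicate 1 was the highest of the dasatinib arrays in all 4 genes and stayed far below DMSO. The medians of the list at 6, 12 and 24 h, all against the same DMSO arrays, were -0.27, -1.05 and -1.99.

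Genes of DNA supply and repair fell as well. Of 19 genes of deoxynucleotide synthesis 18 fell and 1 rose (median -1.08), among them MTHFD2, a mitochondrial folate enzyme (-3.00), RRM2, the cell cycle subunit of ribonucleotide reductase (-2.44), TK1, thymidine kinase (-2.04), and TYMS, thymidylate synthase (-1.90). TYMS read 11.91, 11.63 and 11.81, against 13.73, 13.69 and 13.63 under DMSO. Of 20 genes of homologous recombination and the Fanconi pathway 18 fell and none rose (median -2.06; the count was 17 without dasatinib replicate 1). The helicase BLM changed by -3.07, the checkpoint mediator CLSPN by -2.93 (-1.94 as the mean of its probe sets) and RMI2, a partner of BLM, by -2.93.

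All 34 tested genes of the spindle, the kinetochore and mitotic exit fell at least 2-fold, with a median change of -2.99. MKI67, the proliferation antigen that coats mitotic chromosomes, read 6.59, 6.58 and 6.84, against 10.32, 10.35 and 10.41 (-3.69 ± 0.08, adjusted p = 7.39e-14). NUF2, a subunit of the NDC80 complex that holds microtubules at the kinetochore, read 7.11, 7.005 and 7.09, against 10.71, 10.66 and 10.64 (-3.60 ± 0.09). CDK1, the kinase that starts mitosis, read 8.40, 8.03 and 8.36, against 11.90, 11.85 and 11.77 (-3.58 ± 0.10), and NDC80 itself changed by -3.41. The arrays of each treatment lay close together in all of these genes and far from the other treatment. The smallest fall of the list was still -1.34. Of the genes whose promoters are printed above, KIF23, a motor of the central spindle, changed by -3.38 and CENPA, the centromeric histone, by -3.28, while MCM6 changed by -2.37 and MCM7 by -2.03.

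The G1 genes fell too. The list holds the D and E cyclins, their CDKs, E2F factors, the retinoblastoma family, CDC25A and SKP2. Of 20 tested 18 fell and 1 rose, with a median of -1.04. In the retinoblastoma family RBL2 was the rise (0.40), while RB1 (-0.61) and RBL1 (-0.52) fell. CCND1, cyclin D1, read 8.53, 8.10 and 8.47, against 11.29, 11.15 and 11.12 (-2.82 ± 0.14, adjusted p = 1.13e-10), CCNE2, cyclin E2, changed by -3.56, and the repressor E2Fs by -3.71 (E2F8) and -3.45 (E2F7; -1.82 as the mean of its probe sets). Among 7 tested CDK inhibitors 2 rose and 2 fell. CDKN1C, which encodes p57, read 8.35, 8.55 and 8.37, against 5.11, 6.12 and 6.24 (2.60 ± 0.29), and CDKN1A, which encodes p21, rose by 0.46. CDKN2D fell by 0.46. CDKN3, which despite its symbol is a phosphatase expressed in cycling cells, fell by 2.51.

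**Figure D2:**
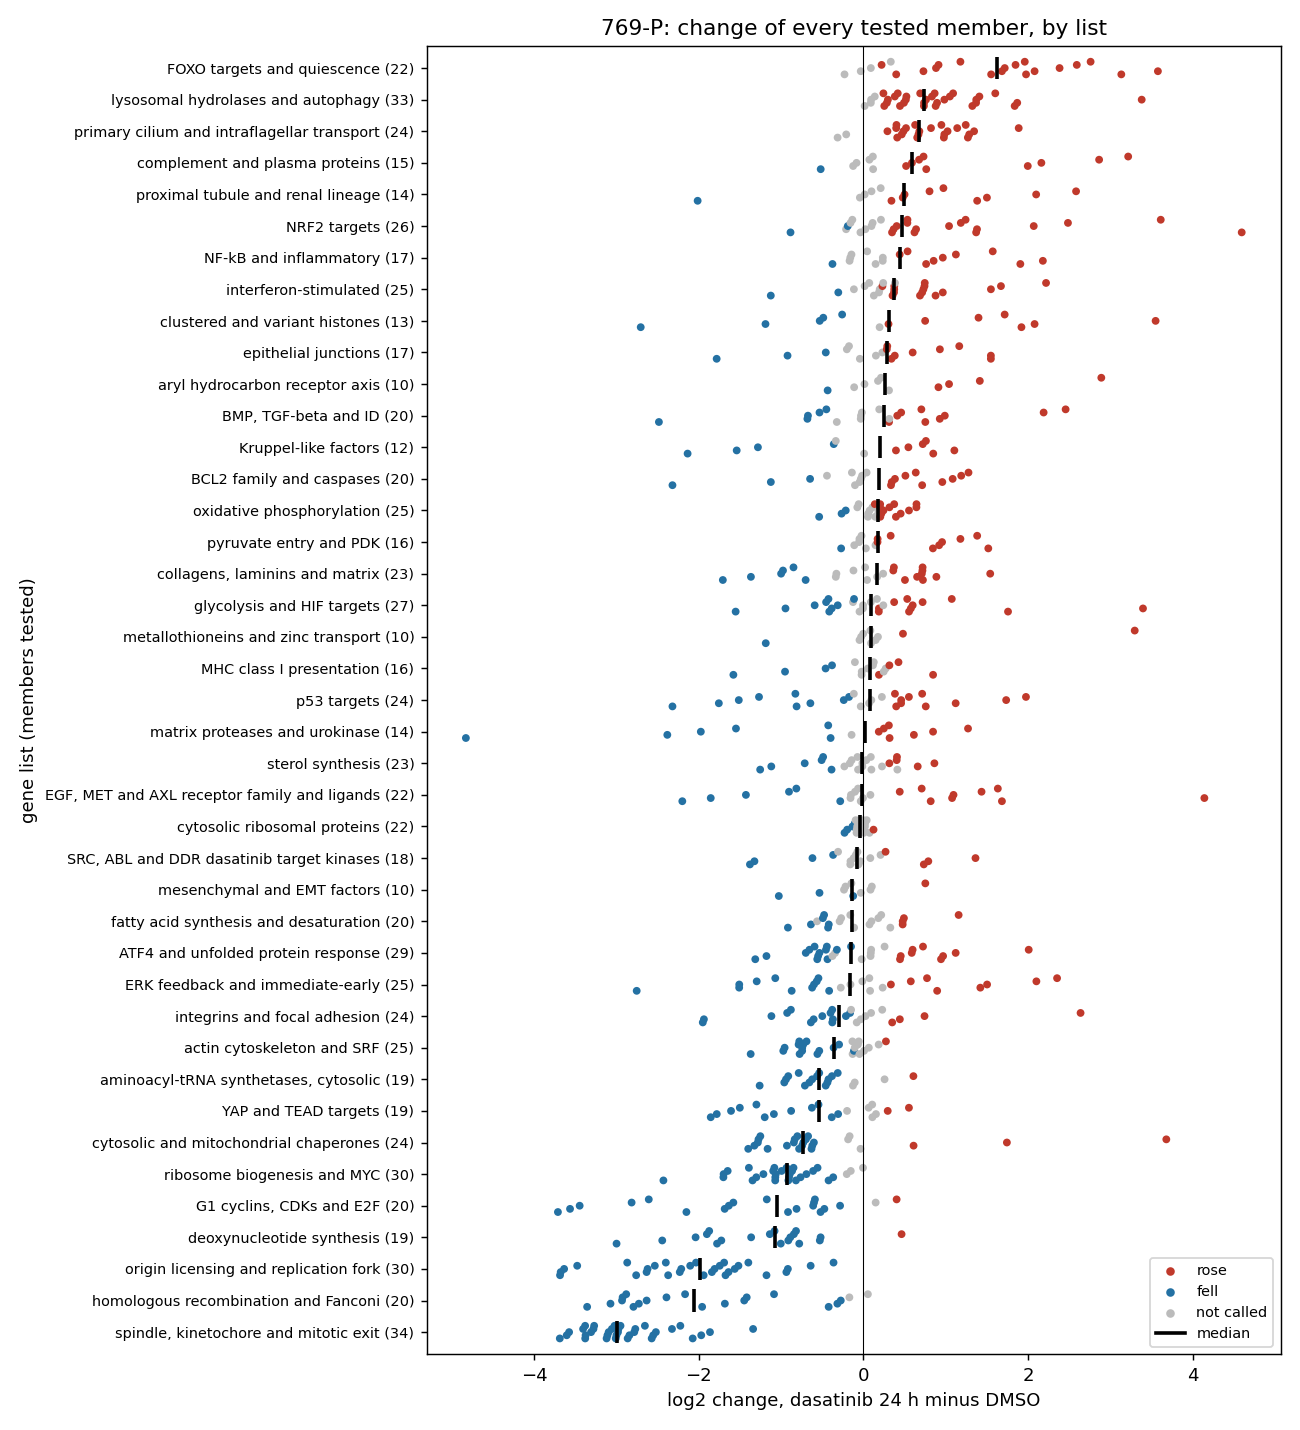
Log2 change at 24 h against DMSO (horizontal axis) for every tested member of each gene list with at least 10 such members, red where it rose, blue where it fell and grey where it was not called, with the list median as a black bar. All 34 mitotic and all 30 replication genes lie left of 0, and 29 of 33 lysosomal genes are red.

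Genes induced by ERK split. Of 25 feedback and immediate-early genes 8 rose and 11 fell (median -0.16), against 31.1% and 24.6% of all genes tested. FOSL1, an AP-1 subunit, read 7.12, 6.03 and 6.54, against 9.65, 9.08 and 9.22 (-2.75 ± 0.22), and PHLDA1 changed by -1.51. DUSP6, the phosphatase that shuts off ERK, read 10.28, 10.55 and 10.25, against 7.81, 8.24 and 7.97 (2.35 ± 0.15, adjusted p = 2.42e-09), ATF3 rose by 2.10, and EGR1, a zinc finger factor made within minutes of stimulation, read 8.15, 8.29 and 7.87, against 6.82, 7.01 and 6.21 (1.42 ± 0.18; 0.79 as the mean of its probe sets). DUSP6, ATF3 and EGR1 were higher than DMSO on all 3 dasatinib arrays and FOSL1 was lower on all 3. MYC read 10.56, 10.13 and 10.23, against 11.35, 11.29 and 11.02 (-0.91 ± 0.16, adjusted p = 0.000167).

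Ribosome assembly genes, most of them MYC targets, were lower, in a list that also holds MYC itself and ODC1. Of 30 tested 27 fell and none rose (median -0.92), led by LYAR (-2.43), the processing factors BOP1 (-1.70) and MRTO4 (-1.70), and NOP16 (-1.65; -1.08 as the mean of its probe sets). The ribosomal proteins themselves hardly moved: of 22, 1 rose and 4 fell, the called changes lay between -0.23 (RPL35) and 0.12 (RPS27), and without dasatinib replicate 1 none rose and 2 fell; 2 rose without DMSO replicate 1 and none without DMSO replicate 2. Of 19 cytosolic aminoacyl-tRNA synthetases, which charge tRNAs, 15 fell and 1 rose (2 without dasatinib replicate 3), with a median of -0.54; FARSB changed by -1.26, YARS1 by -0.96, MARS1 by -0.94 and TARS1 by -0.91.

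Of 18 tested kinases of the list of dasatinib targets 4 rose and 4 fell (median -0.08; 2 rose with the mean of all probe sets). At least 2-fold were 1 rise and 2 falls, against 6.46% and 6.08% of all genes. SRC read 8.27, 8.07 and 8.01, against 7.77, 7.79 and 8.17, and was not called (0.21 ± 0.13, adjusted p = 0.194), nor were YES1 (-0.04), LYN (-0.06), ABL1 (-0.16) or DDR1 (-0.31). These results depended on the processing: SRC was called higher without DMSO replicate 3 (0.34, adjusted p = 0.0378) and ABL1 lower with array weights (adjusted p = 0.0184). DDR1 was called lower without DMSO replicate 1 (-0.45, adjusted p = 0.0106), without dasatinib replicate 1 (-0.43, 0.0163), with array weights (-0.56, 0.000268) and with the ACTB gap as a covariate (-0.47, 0.0199), and was 0.0407 as the mean of its probe sets. ABL2 changed by -0.37 ± 0.11 (adjusted p = 0.00921; 0.055 without DMSO replicate 1 and 0.0506 without dasatinib replicate 2). EPHA2, a receptor for ephrins, read 7.29, 6.85 and 7.01, against 8.59, 8.38 and 8.31 (-1.38 ± 0.14), and EPHB1 changed by -1.32. SIK2, a salt-inducible kinase, rose by 1.36 and EPHA4 by 0.79; as means of their probe sets these were 0.90 and 0.35.

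Among 22 receptors, ligands and regulators of the EGF, MET, AXL, FGF and insulin or IGF systems 9 rose and 6 fell (median -0.02). Beside ERBB3, INSR, the insulin receptor, read 8.33, 8.82 and 9.02, against 6.77, 6.99 and 7.36 (1.68 ± 0.19; 0.92 as the mean of its probe sets). HBEGF, an EGF receptor ligand, read 7.58, 7.01 and 7.003, against 9.75, 9.50 and 8.94 (-2.20 ± 0.21), and AXL read 10.63, 10.40 and 10.45, against 12.33, 12.26 and 12.46 (-1.85 ± 0.07, adjusted p = 4.77e-12). Both receptors that rose and both genes that fell kept their groups apart.

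Genes read by YAP and TEAD were mostly lower, 12 of 19 having fallen and 2 risen (median -0.54). CCN1, a secreted matrix protein, read 10.79, 10.004 and 9.83, against 11.97, 12.04 and 11.96 (-1.78 ± 0.27, adjusted p = 2.8e-05), with dasatinib replicate 1 nearest to DMSO. GADD45B changed by -1.61 and DLC1 by -1.50; as means of their probe sets these were -0.91 and -0.85. Of 25 genes of the actin cytoskeleton and its factor SRF 15 fell and 1 rose (median -0.36): FHL2, an actin-associated coactivator, changed by -1.37, the tropomyosin TPM4 by -0.97, TAGLN2 by -0.96 and ACTB by -0.79. ACTB read 12.99, 12.57 and 12.58, against 13.48, 13.54 and 13.49; this is also the gene whose 3′ to 5′ gap is high on dasatinib replicate 1.

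Of 24 genes of integrins and focal adhesions 14 fell and 4 rose (median -0.29; 13 fell without dasatinib replicate 1). CD44, the hyaluronan receptor, read 11.46, 11.18 and 11.30, against 13.23, 13.24 and 13.28 (-1.94 ± 0.07, adjusted p = 4.01e-12). ITGA3, a laminin-binding integrin, read 8.43, 8.11 and 8.43, against 10.26, 10.20 and 10.36 (-1.95 ± 0.10; -1.24 as the mean of its probe sets), and LIMS1 changed by -1.12. ITGB8, which frees TGF-beta from its latent form, went the other way: 11.68, 11.67 and 11.46, against 8.33, 8.95 and 9.62 (2.64 ± 0.22). Of 14 matrix proteases and urokinase genes 6 fell and 7 rose, the rises at most 1.27 with only 3 called without dasatinib replicate 1 or DMSO replicate 1 and 4 without DMSO replicate 2. Beside MMP1 the falls were in PLAU, urokinase, with 9.75, 9.39 and 9.53 against 12.10, 11.85 and 11.88 (-2.38 ± 0.12), its receptor PLAUR (-1.97) and the protease inhibitor SERPINE2 (-1.55).

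FOXO targets and genes of quiescence rose. Of 22 tested 18 rose and none fell (1 fell without DMSO replicate 2), 13 of them at least 2-fold, with a median of 1.62. TXNIP, which binds thioredoxin and limits glucose uptake, read 12.80, 13.32 and 13.09, against 9.57, 9.91 and 10.32 (3.13 ± 0.28, adjusted p = 9.84e-08). Its relative ARRDC4 read 10.50, 11.30 and 10.91, against 6.77, 7.45 and 7.75 (3.58 ± 0.38), and KLHL24, a ubiquitin ligase adaptor, 10.15, 10.39 and 10.21, against 7.04, 7.72 and 8.22 (2.59 ± 0.20). In these 3 genes DMSO replicate 1 was the lowest array and DMSO replicate 3 the highest of its group. YPEL2 rose by 2.76 (1.10 as the mean of its probe sets).

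Among 33 genes of lysosomal enzymes and autophagy there were 29 rises and no fall (28 rises without dasatinib replicate 1), with a median of 0.74 and 10 rises of at least 2-fold. GABARAPL1, an ATG8 protein of the autophagosome that is also a FOXO target, read 10.77, 11.26 and 11.21, against 7.37, 7.66 and 8.07 (3.38 ± 0.17, adjusted p = 1.43e-10). NEU1, the lysosomal sialidase, read 10.74, 10.74 and 10.88, against 8.90, 8.90 and 8.95 (1.87 ± 0.09), TPP1, a lysosomal peptidase, rose by 1.84 and GAA, acid glucosidase, by 1.60. As means of probe sets GABARAPL1 rose by 1.96, TPP1 by 0.74 and GAA by 0.80; NEU1 has 1 probe set. The primary cilium, an antenna that cells grow when they leave the cycle, gave 22 rises and no fall among 24 genes (median 0.68; 21 rises and 1 fall without dasatinib replicate 1). BBS1, part of the coat that carries cargo to the cilium, read 9.76, 9.82 and 9.76, against 7.61, 7.96 and 8.10 (1.89 ± 0.12), but 0.25 as the mean of its 8 probe sets. IFT27 rose by 1.35, BBS9 by 1.29 (0.53 as the mean of its probe sets) and BBS2 by 1.27.

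NRF2 targets, which detoxify carbonyls and quinones, gave 16 rises and 2 falls among 26 (median 0.47). After AKR1C1 and AKR1C2 came AKR1B10, another aldo-keto reductase, at 9.95, 10.40 and 10.89, against 7.75, 7.78 and 8.25 (2.49 ± 0.30), and HMOX1, heme oxygenase, at 11.14, 10.53 and 10.96, against 9.20, 8.43 and 8.79 (2.07 ± 0.20, adjusted p = 2.2e-07). The falls were in SLC7A11 (-0.885) and PRDX1 (-0.19). Members not called included GCLM (0.02), SRXN1 (-0.16) and TXN (-0.13). Of 10 genes of the aryl hydrocarbon receptor axis 4 rose and 1 fell. The repressor AHRR rose by 2.89 (1.51 as the mean of its probe sets) and CYP1B1 by 1.42. NQO1, also an NRF2 target, rose by 1.04 and ALDH1A3 by 0.91 (0.49 as the mean of its probe sets). The fall was in AHR, the receptor itself (-0.43). CYP1A1 (-0.11), CYP1A2 (0.01), TIPARP (0.21), ARNT (0.18) and LRAT (0.31) were not called. CYP1B1 read 6.89, 7.87 and 8.50, against 5.77, 5.98 and 7.27, so its groups overlapped. Metallothioneins, which bind zinc and copper, did not move together: of 6 tested MT1F rose and MT2A fell. Of the 4 other genes of the list, zinc transporters and the factor MTF1, only the zinc exporter SLC30A1 was called (0.48). MT1F read 10.64, 10.56 and 10.68, against 7.89, 6.98 and 7.11 (3.30 ± 0.28), and MT2A read 12.85, 12.98 and 12.93, against 14.30, 14.08 and 13.92 (-1.19 ± 0.09). Metallothionein genes are close copies, so a probe set may read more than the gene it is named for.

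Chaperones fell. Of 24 tested 18 fell and 3 rose (median -0.74), HSP90AA1 reading 11.30, 11.48 and 11.53, against 12.92, 12.73 and 12.63 (-1.32 ± 0.08), and its partner CHORDC1 changing by -1.40. The rises were in the small heat shock proteins CRYAB and HSPB8 (1.74) and in DNAJB4 (0.61). HSPB1, also a small heat shock protein, fell (-0.83). ATF4 and unfolded protein response genes were mixed, with 9 rises and 13 falls among 29 (median -0.15): DDIT4, an inhibitor of mTOR, read 10.18, 10.14 and 9.96, against 7.92, 7.98 and 8.36 (2.01 ± 0.11), SESN2 rose by 1.12, and PSAT1, an enzyme of serine synthesis, read 10.44, 10.34 and 10.58, against 11.71, 11.77 and 11.82 (-1.31 ± 0.07).

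Of 25 genes of oxidative phosphorylation 13 rose and 3 fell (median 0.18), the largest rises being COX5B (0.65), NDUFB5 (0.64) and UQCRC2 (0.55). Of 16 genes that govern pyruvate entry 9 rose and 1 fell, among them PDK2, a kinase that blocks pyruvate dehydrogenase (1.52; 0.69 as the mean of its probe sets), and PCK1, which starts gluconeogenesis (1.38). Without dasatinib replicate 1 these were 7 and none, and the fall was also lost without dasatinib replicate 3 or any 1 of the DMSO arrays. Glycolysis and HIF targets gave 11 rises and 9 falls among 27: NDRG1 read 11.96, 12.03 and 11.99, against 8.58, 8.45 and 8.74 (3.40 ± 0.09; 1.87 as the mean of its probe sets), CA12, a carbonic anhydrase, rose by 1.76 (1.07 as the mean of its probe sets), and SLC2A1, the glucose transporter, read 9.89, 9.36 and 9.39, against 11.31, 10.88 and 11.12 (-1.55 ± 0.17). Of 23 sterol genes 5 rose and 6 fell, led by EBP (-1.25); without dasatinib replicate 1 there were 3 rises and 8 falls, and 3 rises also without DMSO replicate 1 or 2. Of 20 fatty acid genes 4 rose and 6 fell, led by the elongase ELOVL6 (1.16). VHL, the tumour suppressor of clear cell carcinoma, was not called (-0.07 ± 0.19).

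Genes of the proximal tubule, the segment from which clear cell carcinoma is thought to arise, gave 9 rises and 1 fall among 14 (median 0.49; 5 rises with the stricter filter). MME, the surface peptidase neprilysin, read 7.51, 8.07 and 8.21, against 5.18, 5.31 and 5.54 (2.59 ± 0.24), DPP4, another brush border peptidase, 8.97, 9.30 and 9.40, against 6.64, 7.26 and 7.46 (2.10 ± 0.20), and MIOX, the kidney inositol oxygenase, rose by 1.50. LHX1, a factor of the embryonic kidney, was the fall: 9.69, 9.54 and 9.40, against 11.48, 11.54 and 11.64 (-2.01 ± 0.08). Of 17 junction and polarity genes 9 rose and 3 fell; PATJ rose by 1.55, PARD6B by 1.55 and the kidney cadherin CDH16 by 1.17, and the keratin KRT7 changed by -1.78. Of 10 mesenchymal factors 1 rose and 3 fell, with VIM at 14.71, 14.77 and 14.77, against 14.86, 14.87 and 14.88 (-0.12; adjusted p = 0.101 without an intensity trend), and SNAI2 at 6.75, 6.41 and 5.89, against 7.86, 7.29 and 6.99 (-1.03 ± 0.25). Of 23 collagens, laminins and other matrix genes 10 rose (6 with the mean of all probe sets) and 6 fell, from COL6A3 (-1.71; -0.71 as the mean of its probe sets) to COL5A2 (1.54).

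Genes of innate immunity were more often higher. Of 25 interferon-stimulated genes 15 rose and 2 fell (median 0.38; 12 and 1 without dasatinib replicate 1, and 1 fall also without dasatinib replicate 2 or DMSO replicate 2 or 3): IFITM1, which blocks virus entry, read 8.49, 8.604 and 8.85, against 5.92, 6.78 and 6.58 (2.22 ± 0.21), the signalling subunit IRF9 rose by 1.67 and the RNA sensor RIGI by 1.55. Of 17 NF-kB and inflammatory genes 9 rose and 1 fell. CXCL8, a neutrophil chemokine, read 10.78, 9.17 and 9.49, against 8.43, 7.51 and 6.96 (2.18 ± 0.37), and the adhesion molecule VCAM1 read 9.65, 9.22 and 9.19, against 7.41, 7.53 and 7.40 (1.91 ± 0.17); dasatinib replicate 1 was the highest array in both. Complement and plasma protein genes gave 9 rises and 1 fall among 15: CFI, a complement protease, read 9.14, 9.63 and 9.85, against 5.31, 6.49 and 7.16 (3.22 ± 0.48), CLU, an extracellular chaperone, 11.23, 11.11 and 11.03, against 8.21, 8.22 and 8.33 (2.87 ± 0.09; 1.47 as the mean of its probe sets), and C3 rose by 2.16. Of 16 genes of class I antigen presentation 4 rose and 4 fell (2 without DMSO replicate 1 or dasatinib replicate 3). These counts were near the shares of all genes tested (31.1% and 24.6%). HLA-E rose by 0.85 and the peptide transporter TAP2 changed by -1.58 (-1.05 as the mean of its probe sets). HLA genes are close copies, so the HLA-E value is uncertain.

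Of 24 p53 targets 10 rose and 9 fell (median 0.08). TP53INP1, an autophagy and stress gene that FOXO can also induce, read 11.70, 11.71 and 11.87, against 9.30, 9.76 and 10.31 (1.98 ± 0.17; 1.13 as the mean of its probe sets), and GDF15, a stress cytokine, rose by 1.74. PMAIP1, which encodes the BH3-only protein NOXA, read 7.27, 7.15 and 7.30, against 9.78, 9.51 and 9.40 (-2.32 ± 0.15), and the death receptor FAS changed by -1.76. Among 20 genes of the BCL2 family and caspases 10 rose and 3 fell: BCL2L11, which encodes BIM, rose by 1.28 (0.49 as the mean of its 14 probe sets), CASP9 rose by 1.19 and BID changed by -1.12.

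Of 20 genes of BMP, TGF-beta and the ID factors 9 rose and 5 fell. ID4 read 12.03, 12.33 and 12.04, against 9.31, 9.86 and 9.85 (2.46 ± 0.12), and ID2 read 11.83, 11.99 and 11.70, against 9.59, 9.64 and 9.72 (2.19 ± 0.09); both encode proteins that block basic helix-loop-helix factors. INHBA, the activin subunit, changed by -2.48. Of 12 Kruppel-like factors 6 rose (3 with the mean of all probe sets) and 4 fell, KLF4 reading 7.95, 7.91 and 7.81, against 10.05, 10.21 and 9.81 (-2.14 ± 0.12). Of 13 histone genes 7 rose and 5 fell. The clustered genes H2BC5 (3.55), H1-2 (2.08) and H2AC6 (1.92) rose, while H2AX, the variant that marks DNA breaks, read 9.47, 9.50 and 9.68, against 12.38, 12.16 and 12.21 (-2.71 ± 0.08). Clustered histone genes are close copies of each other, so these 3 values are uncertain as to which copy they read.

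Between 12 h and 24 h mitotic genes fell, and many early-response genes were higher. Against the 12 h arrays 2097 genes were higher at 24 h (17.0%) and 1330 lower (10.8%); with the ACTB gap as a covariate 1033 were higher. All 34 mitotic genes were lower at 24 h than at 12 h, with a median difference of -2.91, and the list medians at 6, 12 and 24 h against DMSO were 0.09, -0.11 and -2.99. At 6 h, where 16.4% of tested genes rose and 14.5% fell, 11 of the 34 had risen and 3 had fallen. NDC80 read 6.63, 6.60 and 6.85 at 24 h, against 10.40, 10.36 and 10.03 at 12 h (-3.57 ± 0.10, adjusted p = 6.53e-13). SPC25, its partner, changed by -3.98 between these times, the topoisomerase TOP2A by -3.55, the helicase PIF1 by -3.48 (-1.73 as the mean of its probe sets), the spindle gene FAM83D by -3.38, CDK1 by -3.33, DLGAP5 by -3.33 and ASPM by -3.32, and these 8 were the largest falls. Of 30 replication genes 28 were lower at 24 h than at 12 h.

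**Figure D3:**
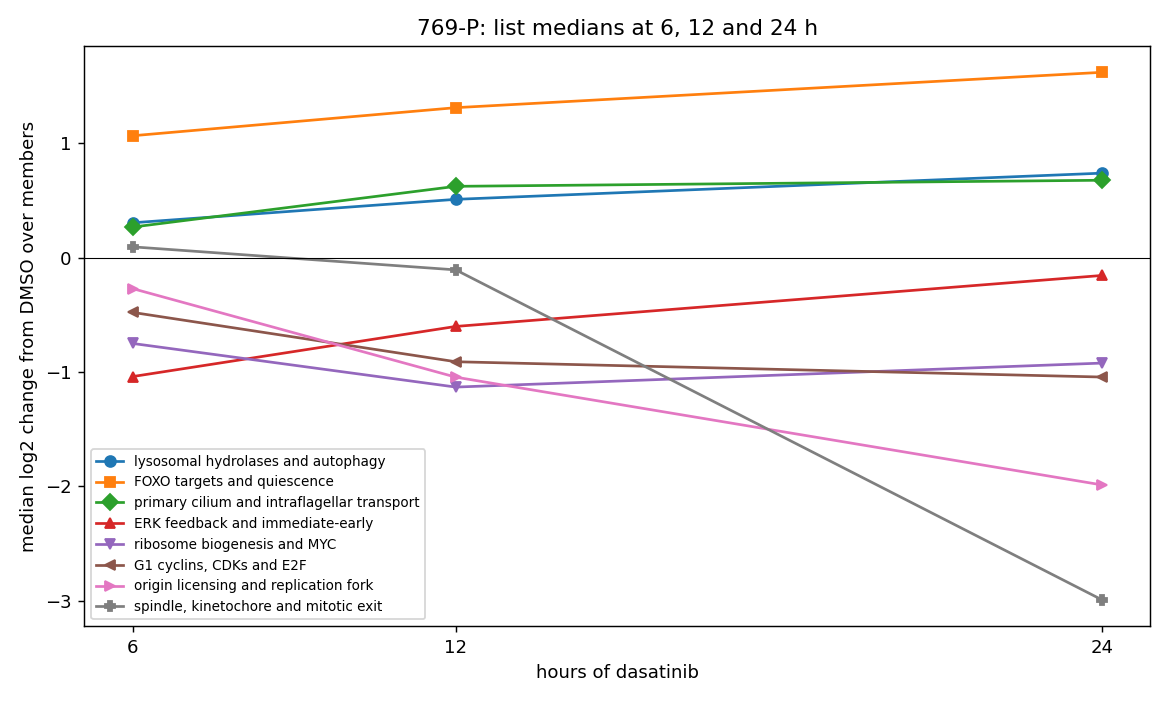
Median log2 change from the shared DMSO arrays (vertical axis) over the tested members of 8 gene lists at 6, 12 and 24 h of dasatinib (horizontal axis). The mitosis list stays near 0 until 12 h and stands at -2.99 at 24 h, while the ERK list moves from -1.04 at 6 h to -0.16 at 24 h.

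Among the 25 ERK feedback and immediate-early genes 14 were higher at 24 h than at 12 h and none was lower; the list medians against DMSO were -1.04, -0.60 and -0.16 at 6, 12 and 24 h. MYC, which is not in that list, averaged 10.31 at 24 h, against 8.44, 8.17 and 8.66 on the 12 h arrays (1.89 ± 0.16, adjusted p = 3.45e-07), while its changes from DMSO at 6, 12 and 24 h were -3.51, -2.80 and -0.91. EGR1 changed from DMSO by -1.12, -0.03 and 1.42 at these times, DUSP6 by -0.48, 0.63 and 2.35, and CCN1 by -3.43, -2.71 and -1.78. CCND1 stayed low, at -3.05, -3.31 and -2.82. The ribosome assembly list, which also holds MYC, had medians of -0.75, -1.13 and -0.92. Of its 30 genes 7, MYC among them, were higher at 24 h than at 12 h and 5 were lower. The largest rise after 12 h was in KCTD12, a potassium channel tetramerisation domain protein, which read 8.15, 8.71 and 8.54 at 24 h, against 5.83, 5.98 and 6.28 at 12 h (2.43 ± 0.18; 1.35 as the mean of its probe sets), and against DMSO its change was not called (-0.05 ± 0.18). SLC27A2 (2.33), SLCO4C1 (2.19), CFI (2.14), DNER, TINAG (1.85) and PLA1A (1.80) followed.

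**Figure D4:**
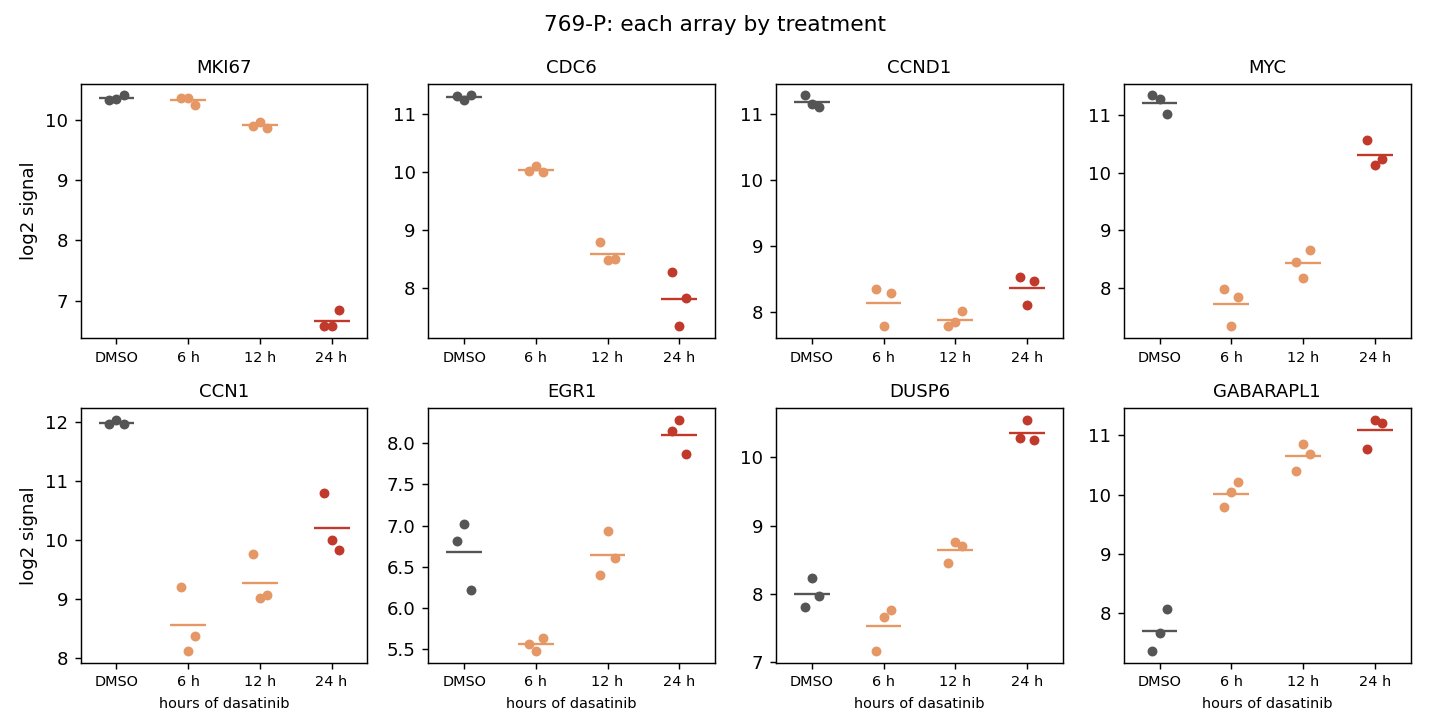
Log2 signal (vertical axis) of 8 genes on each 769-P array under DMSO and at 6, 12 and 24 h of dasatinib (horizontal axis), with group means as bars (n = 3 each). MKI67 is far below DMSO at 24 h alone, CCND1 is low from 6 h on, and MYC returns part of the way to DMSO by 24 h.

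The change at 24 h differed between the lines for many genes. The change in 769-P was higher than the change in Caki-1 for 2849 of 12864 genes (22.1%) and lower for 1780 (13.8%), from the interaction term over both lines. Of 11913 genes tested in each line and in the difference, 249 rose in 769-P and fell in Caki-1 with the difference called, and 175 did the reverse. In Caki-1 itself 32.9% of tested genes rose and 29.9% fell. Mitotic genes fell in both lines, 34 of 34 in each, and the change was lower in 769-P for 26 of 34 (median difference -0.71). For replication the medians were -1.99 in 769-P and -2.07 in Caki-1, with 4 genes of 30 higher and 5 lower in 769-P. The ribosome assembly list fell less in 769-P, 14 of 30 genes having a higher change and 1 a lower one (medians -0.92 in 769-P and -1.41 in Caki-1). The actin and SRF list was lower in 769-P in 16 of 25 genes and higher in 1 (medians -0.36 in 769-P and 0.13 in Caki-1), and class I presentation in 10 of 16 and none (0.09 and 0.56).

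Several of the genes with the largest differences were dim in 1 line. MAF, SEMA5A, KCNJ8, GPR183, HSD17B2 and KCNJ13 rose by 3.40 to 4.30 in 769-P, and their Caki-1 signals lay between 3.46 and 5.56 on all arrays of either treatment. DNER, a transmembrane ligand related to the Notch ligands, read 7.88, 7.83 and 7.32 with dasatinib in 769-P, against 4.30, 4.02 and 4.22 under DMSO, and 6.09, 5.82 and 5.58 with dasatinib in Caki-1, against 7.08, 7.19 and 7.07; the difference was 4.78 ± 0.30 (adjusted p = 2.95e-11). CCDC150 likewise went up in 769-P (2.13) and down in Caki-1 (-1.20). GABRB1, which fell in 769-P, read 3.502 to 4.003 on the 6 Caki-1 arrays. PDK4, which blocks pyruvate dehydrogenase, read 4.97, 6.14 and 5.91 with dasatinib in 769-P, against 4.18, 4.56 and 4.75, and 9.54, 9.91 and 9.95 in Caki-1, against 4.74, 4.18 and 4.75 (difference -4.06 ± 0.46). CDH1, E-cadherin, stayed between 4.01 and 4.36 on all 6 arrays of 769-P and in Caki-1 read 8.61, 9.88 and 9.77 with dasatinib, against 5.02, 5.73 and 5.79 (difference -3.90 ± 0.58). MMP1 and DOCK2 fell in both lines, by more log2 units in 769-P (differences -3.27 and -3.42). MMP1 ended at 5.50, 4.53 and 4.58 in 769-P and at 5.70, 4.925 and 4.22 in Caki-1. Under DMSO it read 9.65 to 9.73 in 769-P and 6.14 to 7.08 in Caki-1. Signals as low as those with dasatinib may be background, so a stronger response of MMP1 in 769-P cannot be read from its difference. As means of all probe sets the differences were 3.12 for DNER, 2.48 for SEMA5A, 1.78 for MAF, 1.63 for CCDC150, -1.82 for DOCK2, -2.10 for CDH1 and -2.50 for PDK4.

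**Figure D5:**
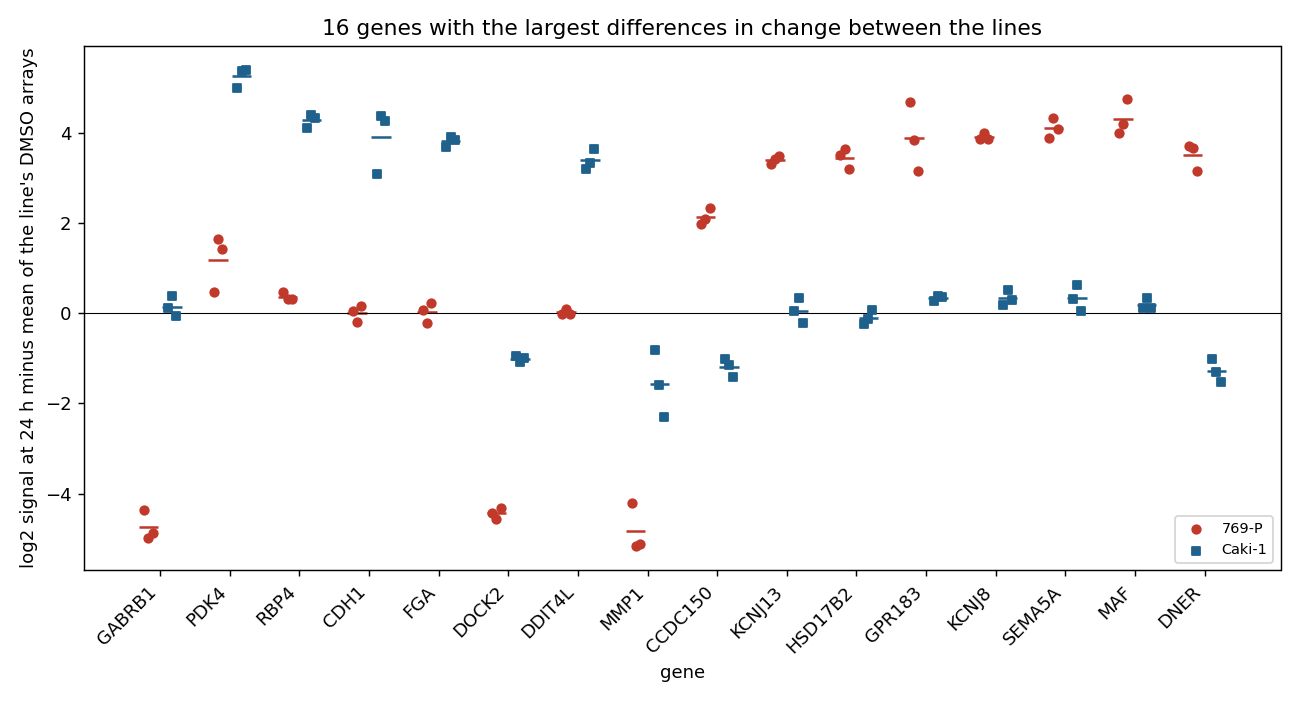
Log2 signal of each 24 h dasatinib array minus the mean of the same line's 3 DMSO arrays (vertical axis) for the 16 genes with the largest differences in change between the lines, 769-P as circles left and Caki-1 as squares right of each gene, with means as bars. DNER and CCDC150 lie above 0 in 769-P and below 0 in Caki-1, and PDK4 lies above 0 in both.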

How the data were processed

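The arrays were Affymetrix PrimeView, and the authors deposited a log2 signal for each probe set. MAS5 is named in the submitters' processing notes, with its settings not given in the sources used here. The medians of the 12 arrays of 769-P were 6.01 to 6.06. Per the labels' protocols, RNA was taken with TRIZOL, cleaned on RNeasy columns with DNase and labelled by a 3′ IVT kit. Of 49395 probe sets 102 were array controls, 44988 named exactly 1 gene, 1832 named several and 2473 had no entry; symbols were updated through RefSeq. Each gene was read from its brightest single-gene probe set over the 24 arrays, which leaves no comparison of levels between genes. Groups came from the labels.

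Tests used limma 3.58.1 in R 4.3.3 with the data.table package, with group means, moderated variances and an intensity trend, over the 12 arrays of 769-P (8 residual degrees of freedom) or all 24 for the difference between lines (16). P-values were adjusted over all genes tested (Benjamini-Hochberg), and a call needed an adjusted p under 0.05. The number of arrays limits the precision: the median SE was 0.105, and 0.151 for a difference between lines. The code was tested on simulated data. Same-numbered arrays of the 24 h and DMSO groups deviated together from their group means (correlations 0.17, 0.122 and 0.123, and 0.165 to 0.185 for 24 h and 12 h), so the labels' replicate numbers were taken as pairs and a fit with a replicate block was run as an alternative. The other alternatives were 2 filters, the mean of all probe sets, quantile normalization, median centring, array weights, the ACTB gap as a covariate, no intensity trend, only the groups compared, and each replicate left out.

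Genes named are the 15 largest rises and falls among called genes with separate arrays and a mean above the median probe set (6.034), up to 4 called members of each of the 45 lists, 20 genes by name, and the 8 largest in each direction for the other comparisons. KIF23, CENPA, MCM6 and MCM7 were named for their promoters after their values were seen. Members, lists and named genes were chosen with earlier results of these data known.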

Additional observations from a re-analysis of the deposited data

Results flagged for a closer look

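The change at 24 h differed between the lines for the following 16 genes, by the interaction term of limma over both lines (769-P change minus Caki-1 change, all with adjusted p under 0.0001). It was higher in 769-P for DNER by 4.78, MAF by 4.12, SEMA5A by 3.76, KCNJ8 by 3.57, GPR183 by 3.56, HSD17B2 by 3.55, KCNJ13 by 3.35 and CCDC150 by 3.33. It was lower in 769-P for GABRB1 (-4.87), PDK4 (-4.06), RBP4 (-3.90), CDH1 (-3.90), FGA (-3.77), DOCK2 (-3.42), DDIT4L (-3.36) and MMP1 (-3.27). RBP4, which carries retinol in plasma, FGA, a fibrinogen chain, and CDH1 lay under the level filter in 769-P, and rose by 4.27, 3.80 and 3.90 in Caki-1.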

How the results depend on the processing

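The counts of genes that rose or fell at 24 h stayed within 1.5 times the reported value under every alternative run, apart from the rises of at least 2-fold with the mean of all probe sets (502). The count of genes higher than at 12 h was 1033 with the ACTB gap as a covariate; the causes were not tested. With the replicate block 3990 genes rose and 3181 fell, and 2503 were higher and 1543 lower than at 12 h; the block changed no call of a named gene. Leaving out 1 array at a time gave 3498 to 3670 rises and 2753 to 3066 falls, 1485 to 1853 genes higher and 1070 to 1331 lower than at 12 h, and 2483 to 2915 and 1533 to 1813 for the difference between the lines. Of 208 named genes 19 changed their call or sign at 24 h under some alternative. The 8 whose sign turned were not called to begin with: DDR1 (0.0407 with the mean of all probe sets, but called lower under 4 other alternatives, at -0.43 to -0.56), YES1 (0.0131 with quantile normalization), ESAM (-0.0441 with array weights, -0.12 with the gap covariate, -0.0387 to 0.37 with an array left out), LYN (0.0652, 0.16, and -0.17 to 0.11), PDGFRB (0.0304 with array weights, -0.18 to 0.0509), KCTD12 (0.0742 with the gap covariate, -0.17 to 0.11), DDIT4L (-0.0891 to 0.23) and VHL (-0.27 to 0.0623). Counts of called list members stayed within 1.5 times the reported value in 1375 cases under the alternatives and moved further in 65. By range over the alternatives, the proximal tubule list had 5 to 9 rises, the Kruppel-like factors 3 to 7, matrix genes 6 to 12, sterol genes 2 to 6, matrix proteases 3 to 8, and the ERK list 5 to 8. No call or sign changed among the genes named against 12 h or between the lines. Depth in the sense of reads does not apply; genes under the level filter were not tested.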

Other observations

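The DMSO arrays were not equally far from the dasatinib arrays. Of the 798 genes that rose at least 2-fold, DMSO replicate 3 was the highest DMSO array in 65.2%, against 32.2% of all genes tested, and DMSO replicate 1 the lowest in 63.7%, against 32.2%. Of the 751 genes that fell at least 2-fold, DMSO replicate 3 was the lowest in 62.6%, against 36.7% of all genes tested. The median change of those rises was 1.50 from replicate 1, 1.38 from replicate 2 and 1.28 from replicate 3, and that of those falls was -1.66, -1.54 and -1.46. The labels give nothing that sets these 3 arrays apart. For replicates 1, 2 and 3 the 3′ to 5′ gap was 2.78, 2.965 and 3.21 in ACTB and 0.27, 0.31 and 0.36 in GAPDH. The part of RNA quality or culture conditions in the order of these arrays was not tested.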
